A study of Mus musculus with 4 samples.

Results

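Methylation was examined in 1-kb windows of the mouse autosomes that overlap a gene for an olfactory receptor (Olfr) or a vomeronasal receptor (Vmn1r, Vmn2r), or the 5 kb on either side of one. Gene symbols and places came from the RefSeq table of GRCm38.p6, the assembly named by mm10. A window was kept when it held at least 5 cytosine positions, each with at least 5 reads in all 4 libraries. This gave 2920 receptor windows of 314517 windows tested, and they were set beside the 290817 other autosomal windows. Of 2035 autosomal receptor genes, 1338 had a window and 697 had none. A receptor gene with no window is not part of the window counts below. Among the genes with a window were 957 of 1419 Olfr genes, 174 of 366 Vmn1r genes and 207 of 250 Vmn2r genes. Another 12 windows at receptor genes on X or Y were left out, as were 8 genes that the table places on unlocalised or alternate sequence.

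The libraries were whole-genome bisulfite libraries of spleen CD4+ T cells from NOD mice, an inbred strain prone to autoimmune diabetes. Mice were given PBS, or OX40L together with Jagged-1 protein, once a week for 3 weeks starting at the age of 6 weeks. Cells were collected 1 week after the last dose, at 10 weeks, and sorted by flow cytometry. CD4+CD25- cells are called effector (Teff) here and CD4+CD25hi cells regulatory (Treg). Each cell type was sequenced once after PBS and once after OX40L-JAG1, and how many animals a library holds is not stated in the labels. The receptor OX40, a costimulator of T cells, binds OX40L, while Jagged-1 acts through Notch. Where 4 values follow each other without names, the order is Teff then Treg with PBS, then Teff and Treg with OX40L-JAG1. With 1 library per group, a test between libraries compares those libraries and not the conditions, and the intervals given below are 95% intervals that cover counting error only. A level is the share of reads at a cytosine, or summed over a window, that stayed unconverted and were counted as methylated. Read numbers of a window, promoter or locus are sums over its positions, so a read over several positions counts at each. Tests and intervals treat these counts as independent, so p values can be too small and intervals too narrow.

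Olfactory receptors are G protein-coupled receptors of the sensory neurons of the nose, and vomeronasal receptors serve the detection of pheromones in the vomeronasal organ. They form some of the largest gene families of the mouse and lie in long tandem arrays with few other genes. A mature olfactory neuron expresses a single receptor gene from a single allele, while the remaining receptor genes are packed in constitutive heterochromatin. In T cells the arrays have no known role and are generally held silent. CpG methylation is a mark of most of the mouse genome outside CpG-rich promoters and active enhancers, and it can decline with cell division in late-replicating, gene-poor DNA.

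Sorting was checked against marker genes. The locus level, over the gene and 5 kb on either side, was lower in Treg than in Teff at 5 of 5 Treg marker loci in both the PBS and the OX40L-JAG1 pair, by a median of -17.8 and -16.8 points. At the Foxp3 locus, the gene of the defining Treg transcription factor, the level was 87.8% in Teff and 70.0% in Treg with PBS, and 81.7% and 64.9% with OX40L-JAG1. The 6 B cell marker loci lay between 51.3% and 92.1% in the 4 libraries, the 5 myeloid loci between 71.4% and 90.1%, and the 5 CD8 T and NK loci between 54.9% and 90.2%. Cd3e, a T cell receptor subunit, had 26.1% in Teff and 45% in Treg with PBS, and 46.1% and 57.5% with OX40L-JAG1. The 8 T cell loci lay between 26.1% and 75.2%, and they did not move together: with OX40L-JAG1, 5 were higher and 3 lower in Teff, among them Cd3e by 20 points and Cd5 by -6.27 points, and 6 were higher and 2 lower in Treg. In the PBS pair 5 were higher and 3 lower in Treg than in Teff. The part of cell makeup in the values below was not tested.

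The sequence before receptor genes is poor in CpG, and examples are shown first because the measured cytosines sit in it. Of the receptor promoters in the RefSeq table (GRCm38.p6; 250 bases before to 50 after the annotated start), 1265 belong to 1260 autosomal receptor genes. Their median was 1 CpG, against 8 in the 30131 other autosomal promoters. No CpG at all was present in 31.2% of receptor promoters and in 4.16% of the others, while 10 or more were present in 0.237% and 45.8%. The median GC content was 35.7% and 53.7%. The 250 bases before the start, 5′ to 3′ on the gene's strand, are given for 4 receptor genes among those with the most measured cytosines there, and for the regulator gene Ebf1, with each CpG in capitals.
Olfr1350, chr7:6569743-6569992, plus strand: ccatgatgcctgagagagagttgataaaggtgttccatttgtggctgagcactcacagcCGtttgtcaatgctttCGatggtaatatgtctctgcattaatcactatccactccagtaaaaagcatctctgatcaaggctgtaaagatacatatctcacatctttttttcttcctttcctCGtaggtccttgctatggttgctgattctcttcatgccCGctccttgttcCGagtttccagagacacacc
Olfr976, chr9:39961045-39961294, minus strand: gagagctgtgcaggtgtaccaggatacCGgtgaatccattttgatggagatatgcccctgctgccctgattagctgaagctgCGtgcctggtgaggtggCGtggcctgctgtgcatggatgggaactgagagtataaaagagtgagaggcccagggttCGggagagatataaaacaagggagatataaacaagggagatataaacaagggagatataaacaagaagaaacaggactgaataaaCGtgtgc
Olfr1302, chr2:111780063-111780312, plus strand: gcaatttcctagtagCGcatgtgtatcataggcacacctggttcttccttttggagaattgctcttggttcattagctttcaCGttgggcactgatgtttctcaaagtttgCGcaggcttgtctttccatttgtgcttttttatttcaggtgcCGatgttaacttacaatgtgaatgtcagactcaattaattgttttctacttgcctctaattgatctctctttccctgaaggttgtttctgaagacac
Vmn1r175, chr7:23809201-23809450, minus strand: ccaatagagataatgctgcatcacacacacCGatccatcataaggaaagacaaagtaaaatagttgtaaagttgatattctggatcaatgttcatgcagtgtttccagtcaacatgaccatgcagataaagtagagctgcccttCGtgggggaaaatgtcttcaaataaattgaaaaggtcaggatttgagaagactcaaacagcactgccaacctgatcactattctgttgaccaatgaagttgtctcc
Ebf1, chr11:44617850-44618099, plus strand: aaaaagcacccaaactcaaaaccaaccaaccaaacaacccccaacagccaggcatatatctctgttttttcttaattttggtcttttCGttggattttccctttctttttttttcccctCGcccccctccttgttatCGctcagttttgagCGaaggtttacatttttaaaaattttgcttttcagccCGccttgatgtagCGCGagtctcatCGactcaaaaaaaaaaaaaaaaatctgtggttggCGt

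The CpGs printed for the receptors were mostly methylated in every library. Before Olfr1350, 5 measured positions gave 86.5% in Teff and 91.8% in Treg with PBS, and 86.7% and 91.2% with OX40L-JAG1, on 34 to 49 reads. Before Olfr976, 5 positions gave 83.5%, 88.9%, 92.5% and 82.4% in the same order. Before Olfr1302, 4 positions gave 96.4%, 87.5%, 95.3% and 100%. Before Vmn1r175, 4 positions gave 83.1%, 75.7%, 72.5% and 82.9%, and the CpG nearer to the start was the lower one: its positions, 105 and 106 bases before the start, lay between 40% and 83.3%, while those at 219 and 220 bases lay between 88.9% and 100%. Ebf1 encodes a transcription factor of olfactory neurons and of B cells, and it was chosen as the gene of the signalling and regulator lists with the most measured positions before its start. Its 4 measured positions were at 0% in both PBS libraries, and with OX40L-JAG1 at 6.90% in Teff and 5.41% in Treg, on 29 to 38 reads. These 5 stretches are examples and not a sample of all promoters.

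Over all receptor promoters with a measured cytosine, 386 in number with 596 positions, the level was 79.9% in Teff and 79.0% in Treg with PBS, and 73.4% and 75.1% with OX40L-JAG1. The OX40L-JAG1 minus PBS difference was -6.42 points in Teff (-7.71 to -5.13) and -3.93 points in Treg (-5.40 to -2.47). The other promoters with a measured cytosine, 4243 with 11530 positions, had 46.6%, 46.6%, 45% and 45.3%. Their differences were -1.56 points in Teff (-1.88 to -1.23) and -1.33 in Treg (-1.69 to -0.960). Receptor promoters were thus more methylated than other promoters, and the treatment intervals of the promoter sets did not overlap. The sets were not matched on starting level or on CpG number, which differ between them, so their differences are not at a like level. The annotated start of 76.1% of receptor promoters is an ATG, against 2.51% of the others, so for most receptor genes the table's start is that of the coding sequence and the true transcription start may lie further upstream. Of motifs searched on both strands of the 300 bases, TATAAA was present in 39.6% of receptor promoters and 12.5% of others, TAATTA in 16.7% and 4.79%, and CCCNNGGG in 4.19% and 14.3%. TATAAA and TAATTA consist of A and T alone, and receptor promoters are rich in these bases.

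Receptor gene starts had no dip in methylation of the size seen at other genes. In 500-base steps from 5 kb before to 5 kb after the start, the level of receptor genes in PBS Teff ran from 79.6% to 83.6%, and the lowest step was the one just before the start. At 15197 other protein-coding genes the level in the same library dropped from 83.9% at the far upstream end to 35.5% just before the start. In the step just before the start, receptor genes had 79.6% in Teff and 79.4% in Treg with PBS, and 73.7% and 75.2% with OX40L-JAG1. In each of the 20 steps at receptor genes, both OX40L-JAG1 libraries lay below both PBS libraries.

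**Figure D1:**
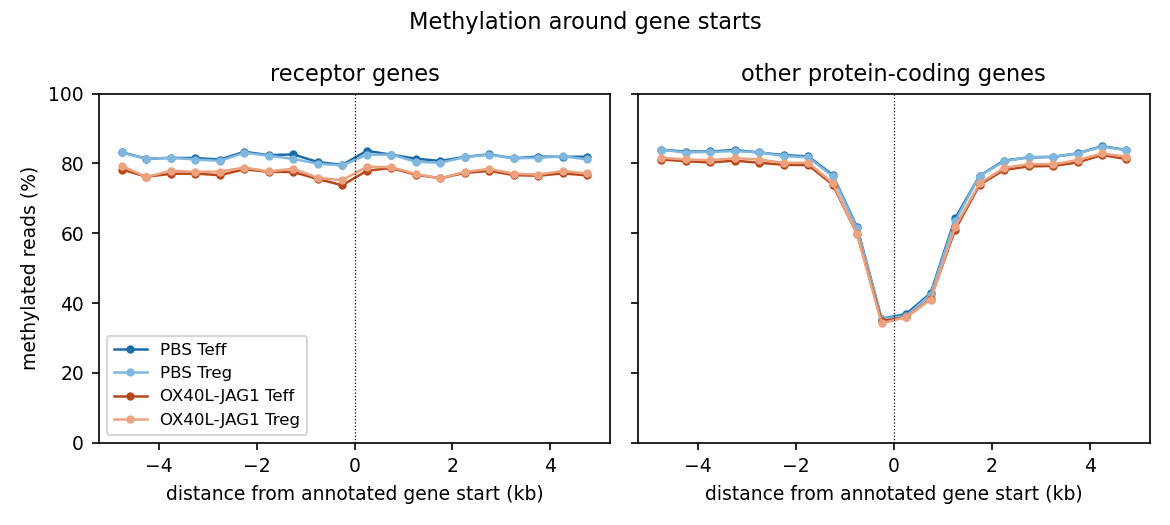
Methylated reads (%, y axis) in steps of 500 bases by distance from the annotated gene start (kb, x axis), for 1260 receptor genes (left) and 15197 other protein-coding genes (right), 1 line per library. Receptor genes stay near 80% across the start with the OX40L-JAG1 lines below the PBS lines, while the other genes dip to between 34.2% and 35.5% in the 4 libraries.

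The receptor windows were methylated in all 4 libraries, but less fully than other autosomal windows. Summed over the 2920 windows, 83.2% of reads were methylated in Teff with PBS (Wilson interval 83.1% to 83.3%) and 79.1% with OX40L-JAG1 (79.0% to 79.2%). In Treg the levels were 82.9% with PBS (82.8% to 83.0%) and 79.7% with OX40L-JAG1 (79.5% to 79.8%). The median receptor window had 86.7%, 86.2%, 81.8% and 82.5% (Teff and Treg with PBS, then Teff and Treg with OX40L-JAG1). Other autosomal windows, weighted to the same numbers of positions per window, had medians of 91.4%, 90.9%, 87.5% and 88.0%. Windows at 80% or more made up 69.9% of receptor windows with PBS and 55.4% with OX40L-JAG1 in Teff, against 80.9% and 71.8% of the others. In Treg these shares were 69.3% and 57.5%, against 80.2% and 73.0%. Read counts summed over the positions of a receptor window had medians of 122 and 89 (Teff and Treg with PBS) and of 96 and 73 with OX40L-JAG1. The median number of positions per window was 6 in both sets. The lower level was not limited to thinly read windows: with 60 or more reads per position the receptor median in PBS Teff was 87.5%, against 91.0% elsewhere, and with 5 to 12 reads it was 87.5% against 91.7%.

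**Figure D2:**
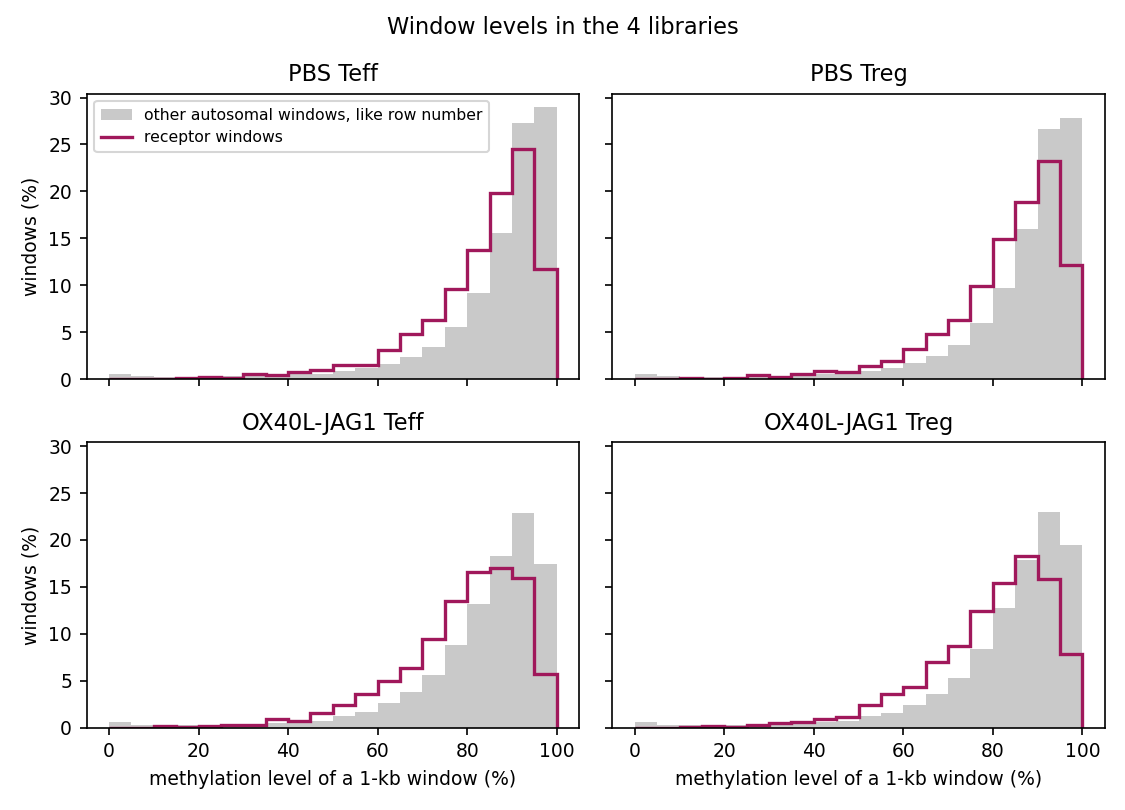
Share of windows (%, y axis) by methylation level in classes of 5 points (%, x axis), 1 panel per library, for the 2920 receptor windows (line) and other autosomal windows weighted to the same number of positions (filled). Receptor windows are fewer in the highest classes in every library, and both sets shift to lower levels in the OX40L-JAG1 libraries.

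The lower level was also present without the window minimum. At all 49723 kept positions in or within 5 kb of a receptor gene, with no minimum per window, the level was 81.6% in Teff and 81.3% in Treg with PBS, and 76.7% and 77.3% with OX40L-JAG1. The 4405205 other autosomal positions had 85.3%, 85.0%, 81.7% and 82.3%. Positions with every read methylated made up 25.4% of receptor positions and 37.1% of the others in PBS Teff, and 22.3% and 33.3% in OX40L-JAG1 Teff, at median depths of 15 and 14 reads in PBS Teff and 12 and 11 in OX40L-JAG1 Teff. Positions with no methylated read were similar in share, 3.54% and 3.21% in PBS Teff.

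Among the families, Vmn2r windows had the lowest level. The 1004 Vmn2r windows had 80.3% in Teff and 80.2% in Treg with PBS, and 76.3% and 76.8% with OX40L-JAG1. The 1630 Olfr windows had 85.0%, 84.6%, 80.9% and 81.5%, and the 287 Vmn1r windows had 85.8%, 85.6%, 82.0% and 82.8%. A window at genes of 2 families counts in both. Vmn2r genes encode long receptors with several exons and a large extracellular domain, while Olfr and Vmn1r coding sequences lie in a single exon. Windows at coding receptor genes had 84.0% with PBS and 79.9% with OX40L-JAG1 in Teff, and windows only at genes that RefSeq types as pseudogenes had 81.4% and 77.4%. Windows over the receptor gene itself, 1128 in number, had 81.5% in PBS Teff, and the 1792 windows in the flanks had 84.1%. Class I olfactory receptors, the fish-like class that in the mouse lies in a single array beside the beta-globin genes, had 79.7% in PBS Teff over 111 windows, against 85.3% over the 1519 windows of the remaining Olfr arrays. Windows under 50% made up 12.6% of the class I windows and 2.57% of the remaining Olfr windows in PBS Teff.

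Hox and protocadherin arrays were read beside them. The 83 windows at the Hox clusters, which carry Polycomb-marked developmental genes, had 32.7% with PBS and 32.9% with OX40L-JAG1 in Teff. The 100 windows at the clustered protocadherins, another family of stochastically chosen genes of neurons, had 75% with PBS and 73.2% with OX40L-JAG1 in Teff, a difference of -1.74 points (-2.80 to -0.679). Receptor windows therefore lay above both arrays and below the autosomal rest in level.

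No receptor window was under 10% in all 4 libraries, against 2168 other autosomal windows (0.746%). Windows under 50% in all 4 libraries made up 2.29% of receptor windows, or 67, and 3.21% of other windows, and 53 of these 67 overlapped no other gene or its flanks. Of the 438 positions in these 67 windows, 137 were under 10% in every library and 72 were at 80% or more in every library, and 33 windows held at least 1 of each kind. These 33 windows are thus mixtures of low and high cytosines. Both kinds were picked by their state in all 4 libraries, so that constancy is the rule of choice and not a result. By the mean of the PBS libraries, the lowest window without another gene lay in Vmn2r13 (chr5:109176001-109177000) and had 10.3% in Teff and 9.89% in Treg with PBS, and 10.8% and 10.4% with OX40L-JAG1 over 5 positions. A window in the flank of Olfr462 (chr11:87885001-87886000) had 10.2%, 13.2%, 10.4% and 14.7%.

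Values of single cytosines show such mixtures. In the flank of Olfr1062 (chr2:86428001-86429000), the positions 86428247 and 86428367 lay between 85.7% and 100% in every library, and the other 7 lay between 0% and 25%; the whole window had 19.2% in Teff and 13.2% in Treg with PBS, and 14.7% and 14.1% with OX40L-JAG1. In the flank of Olfr559, a class I gene (chr7:102720001-102721000), 4 positions were at 0% in all 4 libraries on 6 to 35 reads, and the other 2 lay between 73.9% and 100%. The remaining low windows by the naming rule lay at Vmn2r-ps11, Olfr990-ps1, Vmn1r172 and Vmn2r56, with 18.3% to 24.1% in PBS Teff and 12.1% to 27.3% in PBS Treg. The reads came from NOD mice and were set on the mm10 reference of another strain, and the part of sequence differences in the low windows was not tested. Positions at 0 in all 4 libraries made up 2.07% of positions both in all receptor windows and in the other windows. In the 67 receptor windows under 50% in all libraries, which were picked for their low level, they were 97 of the 438 positions.

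In both cell types the OX40L-JAG1 library had less methylation at the receptor arrays than the PBS library. The pooled difference was -4.08 points in Teff (Newcombe interval -4.24 to -3.92) and -3.23 points in Treg (-3.41 to -3.04). Of the 2920 receptor windows, 2288 were lower in Teff (78.4%) and 2111 in Treg (72.3%), against 73.5% and 67.2% of other windows of like number of positions. Both differences were below 0 in 1689 receptor windows (57.8%), against 51.7% of other windows. The median window difference was -3.96 points in Teff and -3.01 points in Treg, against -2.82 and -2.14 in the other windows, so that receptor windows were lower by a further 1.14 (Teff) and 0.866 (Treg) points. The lower level of the OX40L-JAG1 libraries was thus shared with the whole genome, and the receptor arrays lay on its stronger side. The share of mitochondrial reads counted as methylated, often read as a measure of failed conversion, was 0.697% in Teff and 0.634% in Treg with PBS, and 0.712% and 0.619% with OX40L-JAG1. Its part in the receptor difference was not tested.

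The distance from genes in general moved with the same difference. Other windows more than 5 kb from any gene, 117677 in number, had medians of -3.46 points in Teff and -2.78 points in Treg, and other windows at a gene had -2.31 and -1.67. Set against the windows away from genes alone, with like numbers of positions, receptor windows were lower by 0.469 (Teff) and 0.197 (Treg) points. Hence most of the excess over the autosomal median was also present in gene-free DNA. Within receptor regions, windows over the receptor gene had -4.06 points in Teff and -3.57 in Treg, and windows 1 to 5 kb away had -3.85 and -2.68. Just outside the 5-kb limit, windows at 5 to 10 kb had -3.52 and -3.04 points. At 20 to 50 kb the medians were -3.05 and -2.32, and at 100 to 500 kb they were -2.42 and -1.64. Over the same steps the median level in PBS Teff went from 85.9% over the gene to 87.1% at 5 to 10 kb and 91.1% at 100 to 500 kb. In Teff the medians thus moved step by step toward 0 from 1 kb outward, while in Treg windows at 5 to 10 kb lay below those at 1 to 5 kb. Far windows held more of other genes: 6198 of 8674 at 100 to 500 kb, against 231 of 1295 at 5 to 10 kb. Among windows at no other gene, the Teff medians were -4.09 points over the receptor gene, -3.95 at 1 to 5 kb, -3.58 at 5 to 10 kb and -3.25 at 100 to 500 kb. In Treg they were -3.57, -2.68, -3.25 and -2.35 points. The order by distance was thus broken in Treg. It was also broken in Teff, with -4.15 points up to 1 kb away, -3.67 at 10 to 20 kb and -3.12 at 50 to 100 kb.

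The difference was also larger at a like starting level. Among windows at 70% to 80% in PBS Teff, the median difference in Teff was -4.99 points in 466 receptor windows and -3.11 in the others. Among windows at 80% to 90% it was -4.36 and -3.55, and at 90% to 100% it was -3.58 and -2.70. In Treg, classed by PBS Treg, the medians were -3.64 and -1.87 at 70% to 80%, -3.30 and -2.38 at 80% to 90%, and -2.94 and -2.22 at 90% to 100%. The middle 50% of windows overlapped widely in each class, so single windows of the sets cannot be told apart by this difference. Because the PBS library sets both the class and the difference, a window that is high by chance there tends to give a lower difference. With windows matched on the PBS library of the other cell type instead, receptor windows were still lower, by 0.727 points in Teff and 0.524 in Treg, a match chosen after the data were seen.

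**Figure D3:**
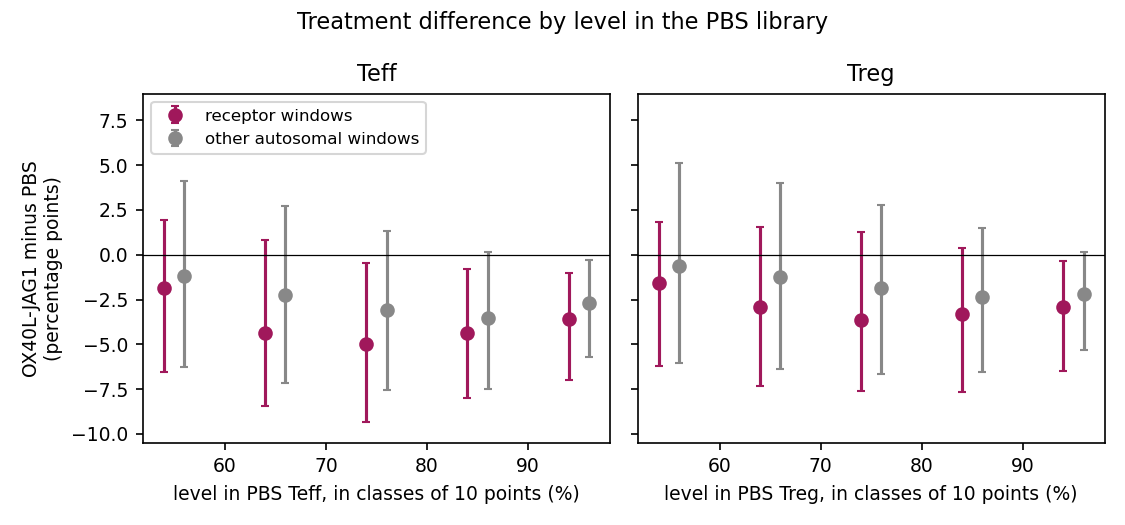
OX40L-JAG1 minus PBS difference (percentage points, y axis) for windows classed by the PBS level of that cell type (%, x axis), in Teff (left) and Treg (right); points are medians and bars run from the lower to the upper quartile of windows. The receptor medians lie below the medians of other autosomal windows in the 5 classes shown, for example -4.99 against -3.11 points at 70% to 80% in Teff, with overlapping quartiles.

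Receptor genes at most 1 Mb apart were joined into 94 clusters, of which 90 had a window and 34 had at least 20. These 34 clusters held 2674 windows, and the 8 with the most windows held 1386. In all 34 the median window difference was below 0 in both cell types, between -5.44 and -0.452 points for Teff, and between -5.76 and -0.317 points for Treg. It was below the median of other windows of like number of positions in 29 clusters in Teff and in 25 in Treg. The pooled difference had an interval wholly below 0 in 33 clusters in Teff and in 30 in Treg. Across the 34 clusters the Teff and Treg medians had a Pearson correlation of 0.56, and the pooled levels of the PBS libraries one of 0.992, as a description; the points share base composition and depth along the genome. Of 56 smaller clusters with a window, 49 had a median below 0 in Teff and 39 in Treg. By chromosome, the receptor median lay below that of other windows in 15 of the 16 chromosomes with at least 20 receptor windows for the PBS Teff level, in 15 for the Teff difference and in 12 for the Treg difference.

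**Figure D4:**
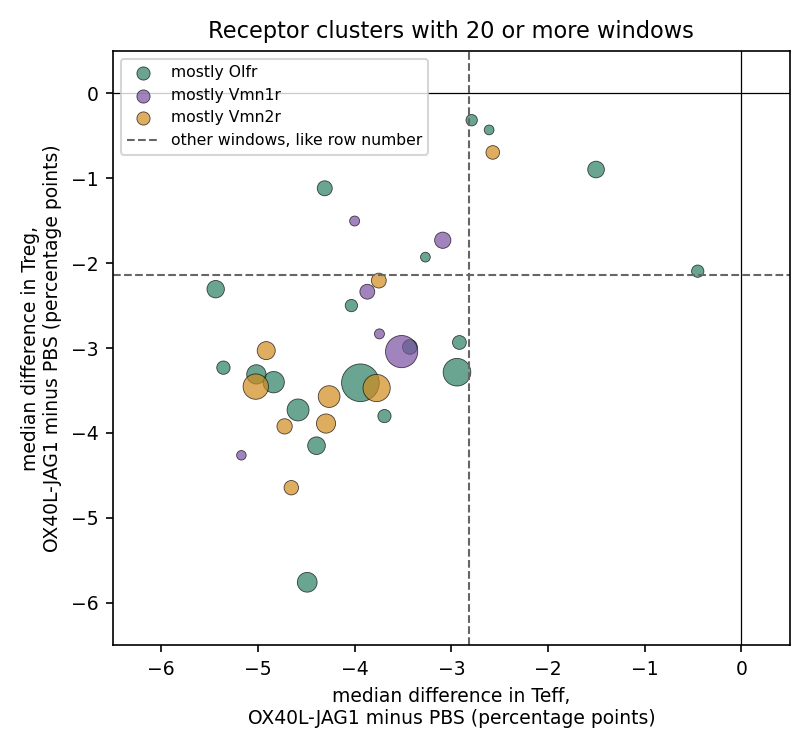
Median window difference of OX40L-JAG1 minus PBS (percentage points) in Teff (x axis) and Treg (y axis) for the 34 receptor clusters with at least 20 windows; the area of a point follows its number of windows, colour gives the leading receptor family, and dashed lines are the medians of other windows of like number of positions. All points lie below 0 on both axes, and most lie below both dashed lines.

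The largest cluster lay on chromosome 2 (chr2:85330967-90401674) with 293 Olfr genes and 327 windows. Its level was 81.4% in Teff and 81.5% in Treg with PBS, and 77.2% and 77.5% with OX40L-JAG1, with differences of -4.14 points in Teff (-4.70 to -3.59) and -3.98 points in Treg (-4.62 to -3.34). The next, at the start of chromosome 7 (chr7:5146490-13244458), held 66 Vmn1r, 48 Vmn2r and 9 Olfr genes, with 76.3%, 76.0%, 72.9% and 73.5%. It was among the less methylated arrays, and its differences were -3.36 points in Teff and -2.52 in Treg. The Olfr cluster chr9:37711348-40188094 had 86.9%, 87.0%, 83.1% and 83.4%. The vomeronasal cluster chr17:17703941-21323764 had 85.3%, 85.6%, 81.5% and 81.7%, and the mixed Olfr and Vmn2r cluster chr7:84810427-87037968 had 85.2%, 85.5%, 80.7% and 81.2%. In the class I cluster (chr7:102476773-105369317), with 158 Olfr genes, the level was 79.7%, 79.3%, 74.8% and 75.5%, and the differences were -4.90 points in Teff (-5.94 to -3.87) and -3.78 in Treg (-4.97 to -2.60). Its Teff interval overlapped that of the remaining Olfr arrays, -4.09 points (-4.31 to -3.87). The cluster chr4:145701675-147521814, with 6 Vmn2r genes, had 71.7%, 72.1%, 67.2% and 67.6%, and chr10:128989914-130497379 had 88.5%, 87.6%, 84.1% and 85.2%. These 8 clusters thus differed far more in level than in their treatment difference.

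The clusters at the ends of the order were as follows. In Teff the lowest medians were -5.44 points in the Olfr cluster chr17:37085191-38336097 and -5.36 points in the Olfr cluster chr11:73350859-74365609. The highest Teff medians were -0.452 points in chr7:140162010-140722212 and -1.5 points in chr16:58760152-59362240, both of Olfr genes. In Treg the lowest were -5.76 points in the Olfr cluster chr19:11828077-13939288 and -4.64 points in chr13:65144261-66873018, mostly of Vmn2r genes. The highest Treg medians were -0.317 points in chr15:98186011-98499471 and -0.432 points in chr11:49112777-49564858, again of Olfr genes. The cluster chr7:140162010-140722212, with 25 Olfr genes and 35 windows, was the sole one of the 34 whose pooled Teff difference was not below 0: its level was 90.9% in Teff and 91.0% in Treg with PBS, and 91.1% and 89.3% with OX40L-JAG1. The Teff difference there was 0.116 points (-0.974 to 1.19) and the Treg difference -1.75 points (-3.09 to -0.428). Its PBS level was also among the highest of the 34, which ran from 70.5% to 91.0% in PBS Teff.

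At single windows few differences passed the threshold. By Fisher's exact test with Benjamini-Hochberg adjustment over all windows, 7 receptor windows (0.240%) were lower in OX40L-JAG1 Teff at an adjusted p under 0.05 and by at least 20 points, against 0.47% of all windows tested. In Treg 3 receptor windows (0.103%) were lower, against 0.0814% of all windows. None was higher in Teff, against 0.0884% of all windows, and none was higher in Treg, against 0.0194%, while at an unadjusted p under 0.05, 10 receptor windows (0.342%) were higher in Teff and 19 (0.651%) in Treg, against 1.02% and 0.954% of other windows. At the same unadjusted p, 489 receptor windows (16.8%) were lower in Teff and 294 (10.1%) in Treg, against 14.7% and 8.38%. At any size of difference, 79 receptor windows were lower in Teff (2.71%, background 2.85%) and 10 in Treg (0.342%, background 0.301%), and 1 was higher in Teff (0.0342%, background 0.185%) and none in Treg (background 0.035%). The shares of calls after adjustment lie near or below the background, so the calls do not set receptor windows apart from the rest. The number of calls is limited by depth, so strongly changed windows can have been missed. No window was called in both cell types. A Wald test of the interaction of treatment and cell type called none (background 0.0108%), with a smallest adjusted p of 0.507.

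The largest called Teff difference lay at the end of Vmn1r51 (chr6:90130001-90131000), a vomeronasal receptor gene whose window also overlaps the gene model Gm20426. The level was 78.0% in Teff and 76.3% in Treg with PBS, and 45.2% and 64.3% with OX40L-JAG1 over 5 positions, a Teff difference of -32.9 points (-46.7 to -17.3) with adjusted p = 0.00634 in Fisher's exact test. Within the window, position 90130342 lay in Teff at 91.2% with PBS and 50% with OX40L-JAG1, and 2 positions were low in every library, between 6.25% and 33.3%. In Vmn2r27 (chr6:124208001-124209000) the level was 98.0%, 92.6%, 74.6% and 86.6% in the same library order, a Teff difference of -23.4 points (Fisher's exact test, adjusted p = 0.00102). Of its 8 positions, 2 lay at 50% and 40% in OX40L-JAG1 Teff, and the other 6 lay at 85.7% or more there. In the flank of Olfr1411 (chr1:92599001-92600000) the level was 81.1%, 76.3%, 57.0% and 55.1%. Here both OX40L-JAG1 libraries lay below both PBS libraries, with -24.1 points in Teff (Fisher's exact test, adjusted p = 0.0343) and -21.2 points in Treg (-37.2 to -4.36; adjusted p = 0.375, which missed the threshold). The other Teff windows were at Olfr443-ps1 and Olfr442-ps1 (75.3% to 46.2%, PBS to OX40L-JAG1 Teff), Vmn2r-ps120 (89.0% to 65.6%), Vmn2r57 (92.5% to 69.4%) and Olfr964-ps1 (77.4% to 56.8%).

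Of the 3 windows called in Treg, the one with the smallest adjusted p lay in Vmn2r-ps106 (chr13:66692001-66693000), a vomeronasal pseudogene whose window also lies within 5 kb of Gm40988. Its level was 69.0% in Teff and 74.1% in Treg with PBS, and 62.3% and 52.8% with OX40L-JAG1, a Treg difference of -21.3 points (-28.8 to -13.6; adjusted p = 0.000403 in Fisher's exact test). A single position, 66692275, held 171 of the 321 reads in PBS Treg and 171 of the 267 in OX40L-JAG1 Treg, at 62.6% and 44.4%. With positions over 3 times the median reads left out, no receptor window was called in Treg; the part of reads placed in repeated sequence was not tested. In the flank of Vmn1r60 (chr7:5541001-5542000) the level was 74.9%, 86.0%, 69.8% and 62.3%, a Treg difference of -23.7 points. In Vmn2r22 (chr6:123649001-123650000) it was 89.5%, 92.4%, 79.1% and 71.0%, a Treg difference of -21.4 points and a Teff difference of -10.4 points. In each of the 10 called windows, the difference in the other cell type was also below 0 but did not pass. Of all receptor windows, 78.4% were lower in Teff and 72.3% in Treg, so most windows would show this.

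**Figure D5:**
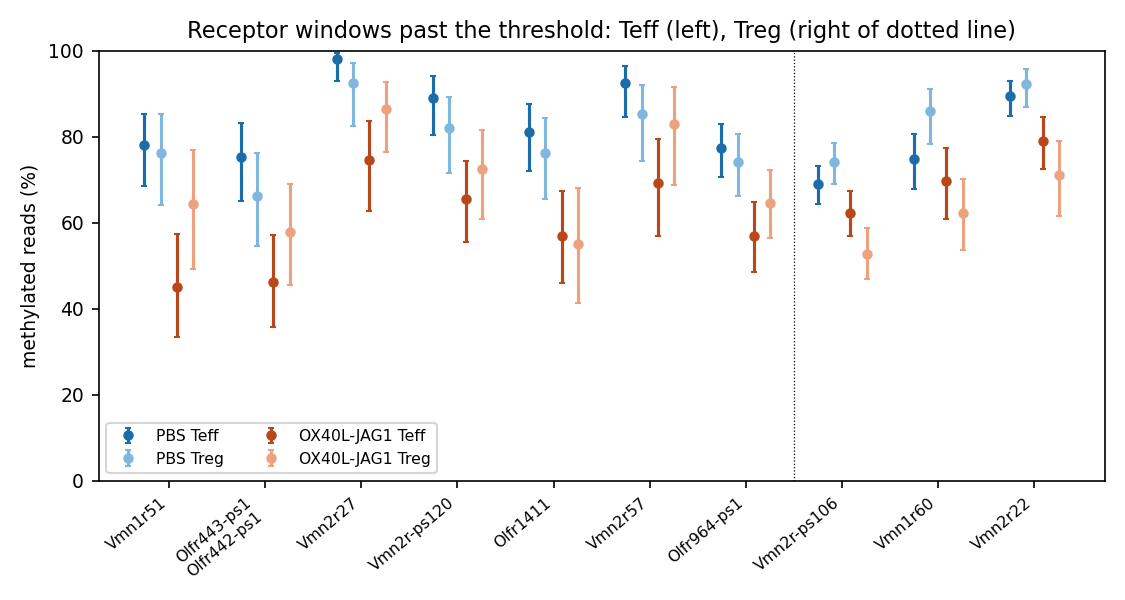
Methylated reads (%, y axis) in the 10 receptor windows past the threshold (x axis, named by gene), with a point per library and 95% Wilson intervals; the 7 windows called in Teff are left of the dotted line and the 3 called in Treg right of it. Both OX40L-JAG1 points lie below the PBS point of the same cell type in each window, from -32.9 points in Teff at Vmn1r51.

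Read over whole loci (gene and 5 kb on either side), the lower level reached most receptor genes. Of 1136 receptor genes with at least 20 kept positions, 1083 were lower with OX40L-JAG1 in Teff (95.3%) and 1039 in Treg (91.5%). Among 30334 other autosomal gene loci, weighted to like numbers of positions, 83.6% were lower in Teff and 77.0% in Treg. In both cell types 999 receptor loci were lower (87.9%) and 13 were higher, against 67.3% and 6.65% of the other loci. Intervals lay wholly below 0 for 672 receptor genes in Teff (59.2%) and 479 in Treg (42.2%), against 38.5% and 21.8% of the other loci. They lay wholly above 0 for 2 and 4, against 1.79% and 1.71%. Most gene loci of any kind were therefore lower, and a larger share of the receptor loci. Neighbouring genes share flanks, so these loci are not independent. The median locus level was 84.1% in Teff and 83.8% in Treg with PBS, and 78.7% and 79.5% with OX40L-JAG1, and the levels of PBS Teff ran from 46.6% to 98.0%.

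Receptors with known ligands or known expression outside the nose were read in the same way. Vmn2r1, a receptor co-expressed with other Vmn2r genes, was the best covered with 309 positions: 86.8% in Teff and 85.2% in Treg with PBS, and 81.3% and 81.8% with OX40L-JAG1, with -5.45 points in Teff (-6.73 to -4.18) and -3.38 in Treg (-4.84 to -1.92). Vmn2r26 had 93.3%, 92.1%, 90.4% and 90% over 99 positions. Vmn2r116, the receptor of a male tear peptide, had 81.4%, 80.9%, 76.3% and 77.2%, and both of its treatment intervals lay below 0. Olfr73, which responds to eugenol, had 72.9%, 74.8%, 67.1% and 68.5%, again with both intervals below 0.

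Not all treatment intervals lay below 0. Olfr78, a class I receptor for short-chain acids that is also expressed in the carotid body, had 68.4%, 68.1%, 65.0% and 68.9% over 43 positions, and both treatment intervals spanned 0. Its neighbour Olfr558 had 72.6%, 84.8%, 69.7% and 69.9% over 18 positions: PBS Treg stood above the other 3 libraries, by 12.2 points over PBS Teff (4.32 to 19.6). Olfr544 was the least methylated of the fixed receptors in PBS Teff, with 58.0%, 56.1%, 52.7% and 50% over 8 positions. Olfr17 followed with 63.4%, 57.5%, 53.3% and 56.2%, and Olfr1507 had 67.2%, 70.5%, 66.2% and 67.7%. Olfr2, which responds to aldehydes such as octanal, had 76.1%, 71.2%, 66.9% and 65.1%. The acetophenone receptors Olfr160 and Olfr151 lay near each other on chromosome 9 and had 87.1%, 85.4%, 81.5% and 82.8%, and 72.8%, 76.3%, 73.0% and 69.3%. Olfr16, also expressed in sperm, had 83.3%, 81.2%, 79.8% and 72.2%. Olfr1393 and Olfr56, both on chromosome 11, had 91.6% and 86.7% in PBS Teff, and their treatment intervals spanned 0. Vmn1r49 had 88.5%, 74.1%, 71.8% and 68.1% on 85 to 113 reads. The locus of Vmn1r51, which holds the window above, had 83.4%, 82.0%, 78.0% and 84.5% over 27 positions, with -5.40 points in Teff (-10.3 to -0.642) and 2.50 points in Treg (-3.09 to 7.86), far from the -32.9 points of the window.

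Between Teff and Treg the receptor arrays hardly differed. Treg minus Teff was -0.279 points in the PBS pair (-0.436 to -0.121) and 0.579 points in the OX40L-JAG1 pair (0.393 to 0.766), and the other autosomal windows had -0.288 and 0.417. The cell-type gap of receptor windows thus had the sign and about the size seen in the rest of the autosomes in each pair. Over the receptor gene itself the gap was 0.143 points with PBS (-0.123 to 0.409) and 0.368 points with OX40L-JAG1 (0.0548 to 0.681). No receptor window was called by Fisher's exact test in the PBS pair, against 0.165% of all windows lower and 0.115% higher in Treg, or in the OX40L-JAG1 pair, against 0.0588% and 0.0547%. The lowest adjusted p values were 0.0608 with PBS and 0.261 with OX40L-JAG1. At any size of difference none was called either, against 0.274% of all windows lower and 0.197% higher with PBS, and 0.0881% and 0.101% with OX40L-JAG1. At an unadjusted p under 0.05, 64 of the 2920 were lower in Treg with PBS (2.19%) and 53 higher (1.82%), against 3.40% and 2.38% of other windows. With OX40L-JAG1 the counts were 57 (1.95%) and 81 (2.77%), against 2.19% and 3.12%.

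Genes that work with the receptors, taken from lists that are not part of the families, were read in the same way over their loci. Olfactory signalling genes (the G protein Gnal, the adenylyl cyclase Adcy3, ion channels, receptor transport proteins and others) had a median of 85.2% in Teff and 85.0% in Treg with PBS, and 79.8% and 80.1% with OX40L-JAG1. Of 18 loci, 17 were lower in Teff and 17 in Treg, with medians of -4.80 and -2.58 points. A called window lay at 1 locus, Ano2, the olfactory chloride channel, lower in Treg. The 18 loci held 324 windows, and of all windows tested 0.0814% were called lower in Treg and 0.47% in Teff. Among the 30334 other autosomal gene loci with at least 20 positions, unweighted, 85.7% were lower in Teff and 79.5% in Treg. Their medians were -2.95 and -2.07 points. The listed loci had no such minimum: Gng13 had 2 positions and Omp 4. Adcy3 had 95.4% with PBS and 94.3% with OX40L-JAG1 in Teff. Rtp1, which carries olfactory receptors to the cell surface, had 92.4%, 91.1%, 79.9% and 86.3%. Of 6 vomeronasal signalling loci, 5 were lower in Teff and 4 in Treg, with none of their 26 windows called. Trpc2, the channel of vomeronasal neurons, had 94.2%, 94.0%, 89.5% and 89.7%, while Gnai2, a G protein subunit also used by lymphocytes, had 38.1%, 40.6%, 45% and 42.7%.

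Regulators of receptor choice, several of which act in T cells too, had median differences nearer 0. Their 17 loci had medians of 83.2%, 83.2%, 79.7% and 78.9% in the library order above, 15 were lower in Teff and 13 in Treg, and the median differences were -1.54 and -0.640 points. Of the other autosomal gene loci, 85.7% were lower in Teff and 79.5% in Treg. The 17 regulator loci held 235 windows. A called window lay at 1 of these loci, Cbx5, which encodes a heterochromatin protein, lower in Teff. Of all windows tested, 0.47% were called lower in Teff. Emx2 had the lowest level, between 10.8% and 15.8% in the 4 libraries, and Lhx2, a homeobox factor needed for receptor expression, lay between 59.5% and 61.4%. Of 88 loci of other chemosensory receptor families (Taar, Fpr, Tas1r, Tas2r, Ms4a), 79 were lower in Teff and 73 in Treg, with medians of -5.29 and -3.53 points, beside -4.91 and -4.03 over the 1136 receptor loci. The other autosomal gene loci, with the shares just given, had medians of -2.95 and -2.07 points. The 1136 receptor loci and the other gene loci needed at least 20 positions each, while the 88 had no minimum. None of the 88 had a window called lower with treatment, over 182 windows counted per locus. The background was 0.47% in Teff and 0.0814% in Treg. Ms4a2, an immunoglobulin E receptor subunit, had 1 window called higher in Teff, against 0.0884% of all windows tested. The Ms4a family includes genes expressed in leukocytes, and the Ms4a6c locus had 70.2%, 48.2%, 52.7% and 44.2%, with -17.5 points in Teff (-21.3 to -13.7) and -3.97 points in Treg (-8.53 to 0.605).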

How the data were processed

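The authors' deposited table gives, for 25374149 cytosine positions of CpG sites, the read count and the methylated read count of each library, and the fraction methylated, which equals the ratio of these counts. Per the submitters' processing notes, Trimmomatic and Bismark were used with mm10; their versions, settings and any removal of duplicates are not given in the sources used here. No library's deposited counts hold a value from 1 to 4. With PBS, listed counts summed to 208402911 for Teff and 131555634 for Treg, and with OX40L-JAG1 to 159291553 and 103584075. A read adds to every position under it.

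Positions read 5 times or more in every library, 4795507 in number (18.9%), were kept, with the 2 strands of a CpG as separate positions, and summed in 1-kb windows of at least 5 positions. Receptor genes, and 5 kb on either side, came from the RefSeq table. Windows were tested between libraries with Fisher's exact test and Benjamini-Hochberg adjustment over all 314517 windows, and called at an adjusted p under 0.05 and at least 20 points. Levels have Wilson and differences Newcombe 95% intervals, which cover counting error only. The Wald test of the interaction, with 0.5 added to each count, was added later. Pseudogenes were taken by RefSeq type in place of the symbol ending first planned. Other windows were weighted to the receptor windows' numbers of positions. Calling by Fisher's exact test was tried on simulated Teff reads drawn as independent counts. The intervals, the weighting and the Wald test were not simulated. Python 3.11.15, numpy 2.4.6, pandas 2.3.3 and scipy 1.17.1 were used.

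Named windows were up to 6 called lower and 4 called higher per comparison, ranked by the interval bound nearest 0, the 8 with the lowest PBS level at no other gene, and 17 receptors listed by name; the seventh Teff call was named after its values were seen. Named clusters were the 8 with the most windows and the 2 at each end of the order in each cell type. The 4 printed receptor promoters were chosen, after their values were seen, from the 8 with the most measured positions. The members and lists were chosen with earlier results of these data known. Alternatives covered the read and position minimums, depth, flanks, windows shared with other genes, positions at 0, very deep positions, centring and the matching of other windows.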

Additional observations from a re-analysis of the deposited data

Results flagged for a closer look

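The Treg minus Teff difference had opposite signs in the PBS and the OX40L-JAG1 pair in several sets of receptor windows, but not in the 1128 windows over the receptor gene itself, where it was 0.143 points (-0.123 to 0.409) and 0.368 points. Over all receptor windows it was -0.279 points in PBS and 0.579 points in OX40L-JAG1, which are 0.858 points apart. At Olfr windows it was -0.390 and 0.599 points, 0.989 points apart. At windows of coding receptor genes only it was -0.294 and 0.530 points, 0.825 points apart. In the flanks of receptor genes it was -0.522 and 0.701 points, 1.22 points apart. The change of sign itself was not tested in these pooled values, which rest on 1 library per group, and the other autosomal windows had the same signs, -0.288 and 0.417 points.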

How the results depend on the processing

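No paired analysis was possible because each group is 1 library, and for the same reason no library could be left out. Of 160 values under other settings, 97 kept their direction and stayed within their error or within 1.5 times the count, 62 moved and 1 changed sign. The gap to other windows has no error of its own, and that of the pooled treatment difference was used for it. The causes were not tested. Levels are given in the order PBS Teff, PBS Treg, OX40L-JAG1 Teff, OX40L-JAG1 Treg. With at least 10 reads per position, the treatment difference was -3.75 points in Teff and -2.82 in Treg, and the Teff gap to other windows -0.830. Of 690 receptor windows left there, 2 were called lower in Teff and 1 in Treg, at levels of 84.1%, 83.8%, 80.4% and 81.0%. With at least 3 positions per window, the treatment differences were -4.61 and -3.71. Of 8335 receptor windows in this setting, 39 were called lower and 1 higher in Teff, and 5 lower in Treg. In PBS, 1 was called lower and 3 higher in Treg than in Teff. The levels were 82.5%, 82.2%, 77.9% and 78.4%. With at least 10 positions the treatment differences were -3.21 and -2.54, the Treg gap to other windows -1.10, and the OX40L-JAG1 cell-type difference 0.328. Of 237 receptor windows, 0 were called lower in Teff and 1 in Treg, at levels of 83.9%, 83.6%, 80.7% and 81.0%. The share of calls over all windows was not recorded in the other settings, so their counts have no background beside them. With reads divided by 3, the Treg gap was -1.05 and the calls 0 and 0, so the number of called windows is limited by depth. Over the receptor gene itself the Treg difference was -3.81, the cell-type difference turned to 0.143 in PBS and was 0.368 in OX40L-JAG1, the Treg gap was -1.45, the Teff calls 3, and the levels 81.5%, 81.7%, 77.5% and 77.8%. Without positions over 3 times the median reads, the Treg difference was -3.44 and the Teff gap -1.35. The calls were 2 and 0 of 2036 receptor windows, and the levels 82.9%, 82.7%, 78.8% and 79.2%. Without positions at 0 in all libraries the levels were 84.6%, 84.4%, 80.5% and 81.1%, and without windows at other genes 83.9%, 83.6%, 79.8% and 80.4%. Centring left 1 Treg call. Of the alternatives added after seeing the data, matching on the PBS level of the other cell type gave gaps of -0.727 in Teff and -0.524 in Treg, and other windows more than 5 kb from any gene gave -0.469 and -0.197. The pooled treatment difference stayed below 0 in both cell types in each setting in which it was recomputed, which excludes centring and the matching of other windows. Mapping in repeated arrays and sequence differences between NOD and the reference were not tested.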
